A study of Rattus norvegicus with 15 samples.

Results

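Cd180 and Dapp1 are 2 genes of immune cell signalling whose RNA was lower in rat nucleus accumbens after long than after short cocaine withdrawal. Among the 11778 genes that passed a filter on low values they were chosen by their log2 values in the groups 30W and 1W (30 and 1 days of withdrawal with no further test), so the difference between those groups is described here and not tested. Each gene has 1 probe set with a single gene symbol (10812775 for Cd180 and 10826985 for Dapp1), and both passed the filter.

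Cd180, also called RP105, is a cell surface receptor related to the Toll-like receptors. It lacks their intracellular signalling domain and depends on a small partner protein, encoded by Ly86. On B cells it promotes activation, and in mouse macrophages and dendritic cells it damps signalling by Tlr4, the receptor for bacterial lipopolysaccharide. Dapp1, also called Bam32, is an adaptor protein with a lipid-binding PH domain and an SH2 domain. It moves to the plasma membrane when PI3 kinase makes its lipid products there, and it is best known downstream of the B cell receptor, where the kinase Lyn phosphorylates it. In brain, the cells most related to these immune lineages are microglia.

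The study measured RNA of the nucleus accumbens, a ventral striatal region of reward learning, in male Sprague-Dawley rats on 15 arrays, in 5 groups of 3. Rats of 30C and 30W self-administered cocaine for 10 days in sessions of 6 h a day and then underwent 30 days of forced abstinence, and those of 1C and 1W had the same training and 1 day of abstinence. The rats of 30C and 1C also had an extinction test of cue-induced drug seeking, and those of Sal took saline under the same training conditions. The age of the rats and any withdrawal time or test for Sal are not given. Nor is it stated that each array is a separate rat and not a pool, so p-values measure only the spread between these samples.

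All values below are RMA log2 intensities, on which a difference of 1 unit is a doubling. Medium spiny neuron markers, which define the striatum, were present on every array, with a mean level over 12 markers between 10.8 and 11.5. Cortical neuron markers varied widely within groups, with a score between -0.82 and 1.17 on the 30C arrays and between -1.52 and 0.87 on the Sal arrays (a score is the mean over a list of each gene's deviation from its own mean over the 15 arrays). The 25th percentile of each array ranged over 5.53 to 5.59 at day 30, 5.48 to 5.51 at day 1 and 5.51 to 5.57 in Sal, so the lower part of the distribution was shifted between the times.

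Both genes lie on rat chromosome 2, with 193.5 Mb between them. In the GRCr8 assembly Cd180 spans chr2:35589889-35602837 on the plus strand, and Dapp1 spans chr2:229099319-229148868 on the minus strand. The sequence just before each gene is shown because the members had similar orders of groups and because both stretches hold GGAAGT, the short core that ETS factors such as the macrophage and B cell regulator Spi1 recognise. The stretches are RefSeq's, GRCr8, read along each gene's own strand, from chr2:35589680-35589888 for Cd180 and chr2:229148869-229149093 for Dapp1. Capitals mark GGAAGT, which in all 3 places stands on the other strand and so reads ACTTCC.
Cd180: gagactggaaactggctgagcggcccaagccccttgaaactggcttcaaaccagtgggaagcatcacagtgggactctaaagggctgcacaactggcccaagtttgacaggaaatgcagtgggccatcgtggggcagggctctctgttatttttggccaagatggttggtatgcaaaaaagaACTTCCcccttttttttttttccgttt
Dapp1: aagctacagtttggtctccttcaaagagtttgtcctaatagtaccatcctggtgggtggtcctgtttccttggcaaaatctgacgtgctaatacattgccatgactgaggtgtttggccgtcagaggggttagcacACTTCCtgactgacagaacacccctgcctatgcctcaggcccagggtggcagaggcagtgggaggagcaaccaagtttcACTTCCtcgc

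In Cd180 the match lay 68 to 63 bases before the transcript start of the RefSeq table. In both genes this start lies inside the annotated span. The printed stretch therefore ends 42 bases before the start for Cd180 and 26 bases before it for Dapp1. Dapp1 had one match 114 to 109 bases and another 35 to 30 bases before its start, and the nearer one extends to the longer GAGGAAGT. Searched on both strands over the 250 bases before the start, GGAAGT was in 19.2% of 33469 promoters and GAGGAAGT, which contains it, in 2.04%. A match is a description of letters, and binding was not measured.

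Cd180 was highest in 1W and lowest in the day 30 groups. It stood at 7.86, 7.59 and 7.61 on the 30W arrays, against 8.23, 8.28 and 8.09 on the 1W arrays. Every 30W array was below every 1W array, with replicate 1 the highest of 30W. The fitted difference was -0.51 (SE 0.08), so the 30W level was 70.1% of that in 1W.

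Dapp1 had the same order between these groups. It stood at 6.74, 6.50 and 6.67 on the 30W arrays, against 7.07, 6.95 and 7.03 on the 1W arrays. Again the groups did not overlap, with the lowest value on 30W replicate 2. The fitted difference was -0.38 (SE 0.06), or 76.8% of the 1W level. Groups apart in this direction were found for 10.5% of the 11778 genes, and nothing is read from this count because the contrast chose the members. Dapp1 sits lower on the array than Cd180, between the 41.4th and 52.6th percentile of all probe sets on each array, against the 60.6th to 70.9th for Cd180.

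**Figure D1:**
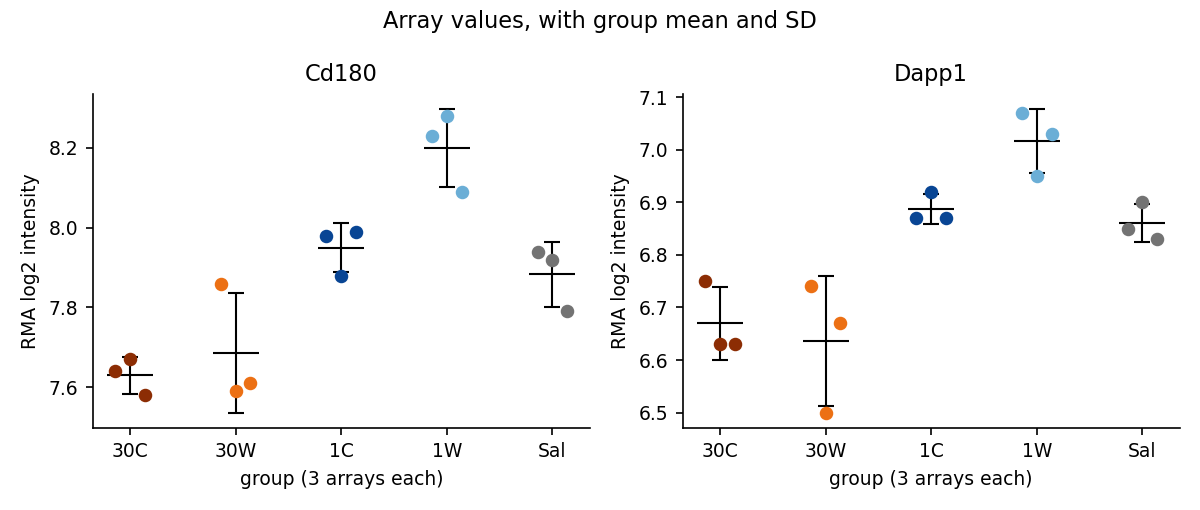
RMA log2 intensity of Cd180 (left) and Dapp1 (right) on each of the 15 arrays by group, with replicates 1 to 3 as points from left to right, the horizontal line at the group mean and bars of 1 SD. The 6 day 30 arrays lie at 7.86 or below for Cd180 and at 6.75 or below for Dapp1, and the 6 day 1 arrays start at 7.88 and 6.87.

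The comparison of 30C with 1C asks the same question about withdrawal time in rats that had the extinction test, on arrays that took no part in the contrast above. The members were chosen with earlier results of these data known, so this comparison is not an independent replication. Both genes were lower in 30C, and neither passed over all genes. Cd180 was at 7.64, 7.67 and 7.58 in 30C, against 7.98, 7.88 and 7.99 in 1C, and Dapp1 was at 6.75, 6.63 and 6.63 in 30C, against 6.87, 6.92 and 6.87 in 1C. The groups did not overlap for either gene, as for 5.87% of all genes in this direction. Cd180 differed by -0.32 (SE 0.08, 95% interval -0.48 to -0.16), a 30C level at 80.2% of that in 1C, with unadjusted p = 0.000943 and adjusted p = 0.608 in limma. Dapp1 differed by -0.22 (SE 0.06, interval -0.35 to -0.08), with unadjusted p = 0.00361 and adjusted p = 0.656 in limma. By unadjusted p they ranked 17 and 64 among the 11778 genes.

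At an unadjusted p under 0.05 both members were lower in 30C than in 1C, as were 3.07% of all genes, while limma passed 0 genes after adjustment, or 0% of those tested, with 646 genes under 0.05 unadjusted. The standard error in this fit pools the spread of all 15 arrays, 1W and 30W included. Fitted on the 6 arrays of 30C and 1C alone, the unadjusted p was 0.000624 for Cd180 and 0.00471 for Dapp1, and the adjusted p 0.938 for both. After a further quantile normalization, which removes the shift of the 25th percentile, the differences were -0.32 for Cd180 and -0.25 for Dapp1.

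In size, the difference between 30W and 1W exceeded that between 30C and 1C for both genes. The difference of the differences was 0.19 (SE 0.11) for Cd180 and 0.16 (SE 0.09) for Dapp1. For Dapp1 it was 0.09 (SE 0.08) without 30W replicate 2, 0.10 (SE 0.08) with array weights and 0.22 without 30W replicate 1. For Cd180 it was 0.14 without 30W replicate 2 and 0.28 without 30W replicate 1. The difference of the differences is given without a test, since the larger contrast was the one by which the genes were picked.

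Over both pairs of groups, all 6 day 30 arrays lay below all 6 day 1 arrays for Cd180 and for Dapp1. This held for 84 genes in all (0.713%), and 38 genes (0.323%) showed the opposite. These 12 arrays include the 6 of 30W and 1W that chose the members, so nothing is read from either share or from the next one. The gap between the highest day 30 array and the lowest day 1 array was 0.02 for Cd180 and 0.11 for Dapp1. Cd180 therefore separated the times narrowly, through 30W replicate 1 at 7.86 and 1C replicate 2 at 7.88. For Dapp1 the day 30 arrays were also below the 3 Sal arrays, a pattern shared by 22 genes (0.187%). Over the 15 arrays Cd180 covered a 1.62-fold range and Dapp1 a 1.49-fold range.

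Rats that took no cocaine give a further comparison, that of 30C against Sal. It uses the same 30C arrays as the comparison with 1C, so its results are not independent of those above. Both members were lower in 30C without passing over all genes. Cd180 was between 7.58 and 7.67 on the 30C arrays, against 7.94, 7.92 and 7.79 on the Sal arrays. Dapp1 was between 6.63 and 6.75 on the 30C arrays, against 6.85, 6.90 and 6.83 on the Sal arrays. Every 30C array was below every Sal array for both genes. Groups apart in this direction were found for 4.11% of genes. Cd180 differed by -0.25 (SE 0.08), with unadjusted p = 0.0054 and adjusted p = 0.759 in limma, and Dapp1 by -0.19 (SE 0.06), with unadjusted p = 0.00902 and adjusted p = 0.77 in limma. At an unadjusted p under 0.05, 2.12% of all genes were lower in 30C than in Sal.

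1C could not be told from Sal in either gene. Cd180 differed by 0.07 (SE 0.08, 95% interval -0.09 to 0.23) and Dapp1 by 0.03 (SE 0.06, interval -0.10 to 0.16), with adjusted p = 1 for both in limma. The groups overlapped for both genes, while 3.21% of all genes had 1C apart from and below Sal and 3.97% apart from and above it. The intervals leave room for a difference of either sign, and the p-values do not show that the groups are alike.

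The remaining comparisons use arrays that chose the genes and are described only. 30W differed from Sal by -0.19 (SE 0.08) for Cd180, where 30W replicate 1 overlapped the Sal arrays, and by -0.22 (SE 0.06) for Dapp1, where no array overlapped, as for 7.19% of all genes in this direction. 1W differed from Sal by 0.32 (SE 0.08) for Cd180 and 0.16 (SE 0.06) for Dapp1, with no overlap in either gene, as for 4.84% of all genes. With the mean deviation of microglia markers as a covariate the value for Dapp1 was 0.07 (SE 0.08). The group means thus ran, from high to low, 1W, 1C, Sal, 30W and 30C for Cd180 and 1W, 1C, Sal, 30C and 30W for Dapp1. In these orders 1C and Sal were neighbours that overlapped, as were 30C and 30W.

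The groups with and without the extinction test overlapped at 30 days and lay apart at 1 day. 30C differed from 30W by -0.05 (SE 0.08) for Cd180 and 0.03 (SE 0.06) for Dapp1, with overlapping arrays; without 30W replicate 1 the value for Cd180 was 0.03, and without 30W replicate 2 that for Dapp1 was -0.03. 1C differed from 1W by -0.25 (SE 0.08) for Cd180 and -0.13 (SE 0.06) for Dapp1, with no overlap, as for 4.3% of all genes in this direction. These 4 differences share arrays with the contrast that chose the genes, and whether the effect of the test differed between times was not tested.

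**Figure D2:**
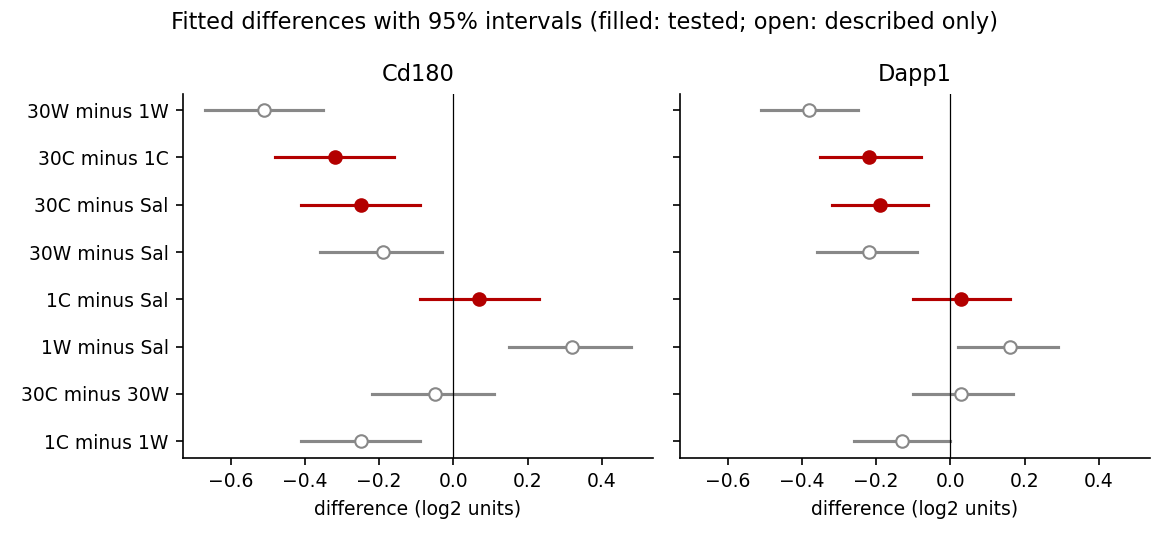
Fitted log2 difference (first group minus second) of Cd180 and Dapp1 in 8 comparisons, with 95% intervals. Filled points are the 3 comparisons tested and open points those described only. The 30C minus 1C points lie at -0.32 and -0.22, and the 1C minus Sal points at 0.07 and 0.03.

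Of 12 genes of the RP105 and TLR4 receptor complexes 9 were tested, and in 30C against 1C 5 were negative, with a median difference of -0.05, against -0.01 over all genes. The score of the 9 was 0.17 on 1C replicate 2, against -0.01 and 0 on replicates 1 and 3 and between -0.04 and 0 in 30C. None of the 9 passed after adjustment in limma, and 1 was lower and 0 were higher at an unadjusted p under 0.05. After median centring or a further quantile normalization 2 were lower in 30C against 1C. In 30W against 1W these counts were also 1 lower and 0 higher, with a median of -0.02. There the share of all genes under 0.05 was 5.9% lower and 4.19% higher, and in 30C against 1C it was 3.07% lower and 2.41% higher. These shares are from the values as deposited. Array medians were between 6.93 and 6.97 at day 30 and between 6.89 and 6.92 at day 1, so median centring lowers all genes at day 30 relative to day 1. For list counts after centring or further normalization, here and below, the share of all genes is not given, and nothing is read from them.

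Ly86, the partner that Cd180 needs, was the lower member in 30W against 1W. It was at 7.15, 7.15 and 7.10 in 30W, against 7.38, 7.42 and 7.22 in 1W, a difference of -0.21 (SE 0.07). In 30C it was at 7.28, 7.15 and 7.12, against 7.25, 7.44 and 7.20 in 1C, with overlap, and the difference was -0.11 (SE 0.07, unadjusted p = 0.127 in limma). The day 30 values of Ly86 were thus mostly the lower ones, by less than those of Cd180.

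Tlr4 itself, whose signalling Cd180 restrains, differed by 0.08 (SE 0.11) in 30C against 1C and by -0.02 (SE 0.11) in 30W against 1W. Ly96, its own small partner, differed by 0.11 (SE 0.06) and 0.05 (SE 0.06). Cd14, which hands lipopolysaccharide to the Tlr4 complex, differed by -0.21 (SE 0.08) in 30C against 1C, with unadjusted p = 0.0158 and adjusted p = 0.832 in limma, and differed by -0.09 (SE 0.08) in 30W against 1W.

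Of 18 genes of Toll-like receptor signalling 13 were tested. In 30C against 1C 12 were negative, with a median of -0.07, and 2 were lower and 0 higher at an unadjusted p under 0.05. These were the ubiquitin ligase gene Traf6 at -0.13 (SE 0.05) and Irf8, a transcription factor of macrophages, at -0.14 (SE 0.06). The score of the 13 was 0.15 on 1C replicate 2, against 0.02 and 0.01 on replicates 1 and 3 and between -0.01 and 0 in 30C. In 30W against 1W 2 were lower and 1 higher at that p, namely the NF-kappaB subunit gene Rela at -0.13 (SE 0.06), Irf5 at -0.15 (SE 0.07) and Irf7, an interferon-regulated factor, at 0.26 (SE 0.11). After median centring of the arrays 6 were lower in 30W against 1W at that p, and after a further quantile normalization 4. The share of all genes under these settings is not given, so neither count is read as a result about the list.

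Around Dapp1, 25 of 36 genes of PI3 kinase and B cell receptor signalling were tested. In 30C against 1C 17 were negative, with a median of -0.03, and 3 were lower and 0 higher at an unadjusted p under 0.05. None passed after adjustment in limma. The score of the 25 was 0.07 on 1C replicate 2, against 0 on replicates 1 and 3 and between -0.05 and 0.01 in 30C. Lyn, the kinase that phosphorylates Dapp1, was at 7.19, 7.01 and 7.30 in 30C, against 7.50, 7.69 and 7.23 in 1C. The arrays overlapped through 1C replicate 3, and the difference was -0.31 (SE 0.10), with unadjusted p = 0.00974 and adjusted p = 0.788 in limma. Pik3ap1, an adaptor that brings PI3 kinase to the membrane, differed by -0.23 (SE 0.10) and the adaptor gene Sh3bp2 by -0.17 (SE 0.08).

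In 30W against 1W, 2 of the 25 were lower and 0 higher at that p, and they were other genes than in 30C against 1C. Blnk, a B cell receptor adaptor, differed by -0.21 (SE 0.08) and Inpp5d, a phosphatase that removes the PI3 kinase product, by -0.20 (SE 0.08). In 30C against 1C Blnk was at -0.03 (SE 0.08) and Inpp5d at -0.05 (SE 0.08), while Lyn was at -0.08 (SE 0.10) in 30W against 1W. Syk, a kinase of B cell receptor signalling, was at -0.01 (SE 0.07) in both comparisons. Pik3cd, the leukocyte catalytic subunit of PI3 kinase, was at -0.11 (SE 0.11) and -0.02 (SE 0.11), and the kinase gene Map4k1 at -0.01 (SE 0.07) and 0.04 (SE 0.07), in 30C against 1C and in 30W against 1W. Btk, between 4.85 and 5.42, and Plcg2, between 5.28 and 5.88, did not pass the filter on low values.

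**Figure D3:**
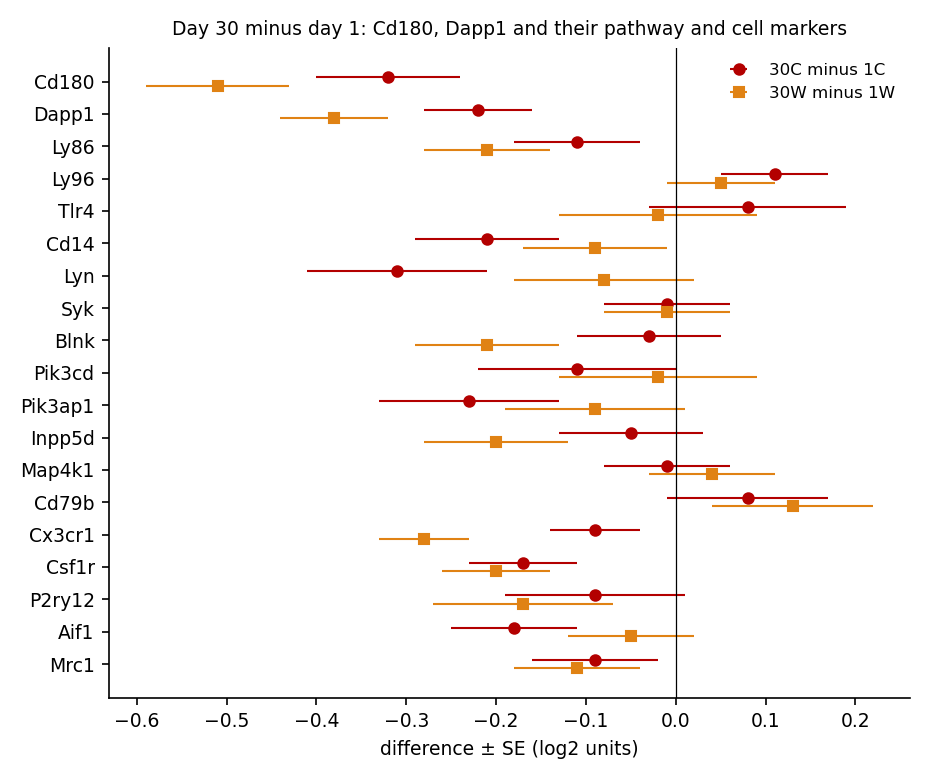
Log2 difference with its SE for Cd180, Dapp1 and 17 pathway and cell marker genes, in 30C minus 1C (circles) and 30W minus 1W (squares). Cd180 and Dapp1 lie farthest left in 30W minus 1W, at -0.51 and -0.38, where they were chosen, and Ly96, Tlr4 and Cd79b lie at or near the right end.

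B cells are the cells in which both proteins are best known. Of 15 B cell markers 4 passed the filter, and the surface antigen gene Ms4a1 lay between 4.63 and 4.93 on all arrays and did not pass. The summed level of the 4 was between 26.9 and 27.2 on the 30C arrays and between 26.7 and 27.2 on the 1C arrays, and between 26.9 and 27.1 in 30W and between 26.4 and 26.7 in 1W. None of the 4 was lower at an unadjusted p under 0.05 in either comparison, and 1 was in 30C against 1C after a further quantile normalization. Cd79b, a signalling chain of the B cell receptor, differed by 0.08 (SE 0.09) in 30C against 1C and by 0.13 (SE 0.09) in 30W against 1W. T and NK cell markers passed for 7 of 15, and 0 of these were lower at that p in either comparison. In each comparison 1 of the 7 was higher, Gzmb, at 0.20 (SE 0.09) in 30C against 1C and 0.22 (SE 0.09) in 30W against 1W.

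Most microglia markers had differences of the same sign as the members. Of 25 markers 22 were tested, 20 of them negative in 30C against 1C with a median of -0.10, and 21 negative in 30W against 1W with a median of -0.11, against medians over all genes of -0.01 and -0.02. None passed after adjustment in limma, and 4 and 6 were lower at an unadjusted p under 0.05, with 0 higher. With median centring, which lowers all genes at day 30 relative to day 1, 9 were lower in 30C against 1C. The share of all genes under that setting is not given. In bulk tissue, fewer cells of a type and less RNA per cell cannot be told apart.

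The summed level of the 22 markers was between 190.8 and 191.7 in 30C, between 190.8 and 191.6 in 30W, between 192.7 and 194.6 in 1C, between 192.3 and 196.3 in 1W and between 191.1 and 192.1 in Sal. The day 30 and day 1 arrays did not overlap in it. The same was true, narrowly, of the 13 Toll-like receptor signalling genes tested. Their sum reached 100.7 in 30C and 100.6 in 30W, and started at 100.8 in 1C and in 1W. These arrays include those of 30W and 1W, which chose the members. Cx3cr1, the fractalkine receptor, was at 10.19, 10.23 and 10.25 in 30C, against 10.41, 10.24 and 10.31 in 1C, a difference of -0.09 (SE 0.05), and differed by -0.28 (SE 0.05) in 30W against 1W. Csf1r, the growth factor receptor of microglia, differed by -0.17 (SE 0.06) and -0.20 (SE 0.06), Aif1, a calcium-binding protein of microglia, by -0.18 (SE 0.07) and -0.05 (SE 0.07), and the purine receptor gene P2ry12 by -0.09 (SE 0.10) and -0.17 (SE 0.10), in the same 2 comparisons. Other markers of the list came close to the members or were level with them. Ptprc, a phosphatase of all leukocytes, differed by -0.31 (SE 0.10) in 30C against 1C, where Cd180 was at -0.32 and Dapp1 at -0.22, and by -0.12 (SE 0.10) in 30W against 1W. Gpr34, a lipid receptor of microglia, differed by -0.04 (SE 0.08) in 30C against 1C and by -0.36 (SE 0.08) in 30W against 1W, where Dapp1 was at -0.38.

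With the microglia score as a covariate, Cd180 differed by -0.26 (SE 0.10, unadjusted p = 0.0232 in limma) and Dapp1 by -0.14 (SE 0.08, unadjusted p = 0.0961 in limma) in 30C against 1C, so that the value for Dapp1 was over 1.5 times smaller than without it. In 30C against Sal the same covariate left -0.24 (SE 0.08) for Cd180 and -0.18 (SE 0.06) for Dapp1. Set against the mean of the 22 markers on the same array, Cd180 was -1.06 ± 0.05 in 30C, -1.01 ± 0.14 in 30W, -0.85 ± 0.10 in 1C, -0.63 ± 0.08 in 1W and -0.82 ± 0.08 in Sal (log2 differences, SD, n = 3 each). Dapp1 was -2.02 ± 0.05 in 30C, -2.06 ± 0.11 in 30W, -1.91 ± 0.02 in 1C, -1.81 ± 0.09 in 1W and -1.85 ± 0.02 in Sal (SD, n = 3 each). On this scale the means of both genes were lowest in the day 30 groups. The microglia scores of 30C (-0.07 to -0.03) and 1C (0.02 to 0.10) did not overlap. Day 1 scores also lay above those of 30W and Sal. Between groups without overlap, neither the covariate nor this scale can separate the microglia score from withdrawal time or cocaine. The covariate was also fitted with the 30W and 1W arrays, which chose the members. Whether the differences came from microglia content was not tested.

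**Figure D4:**
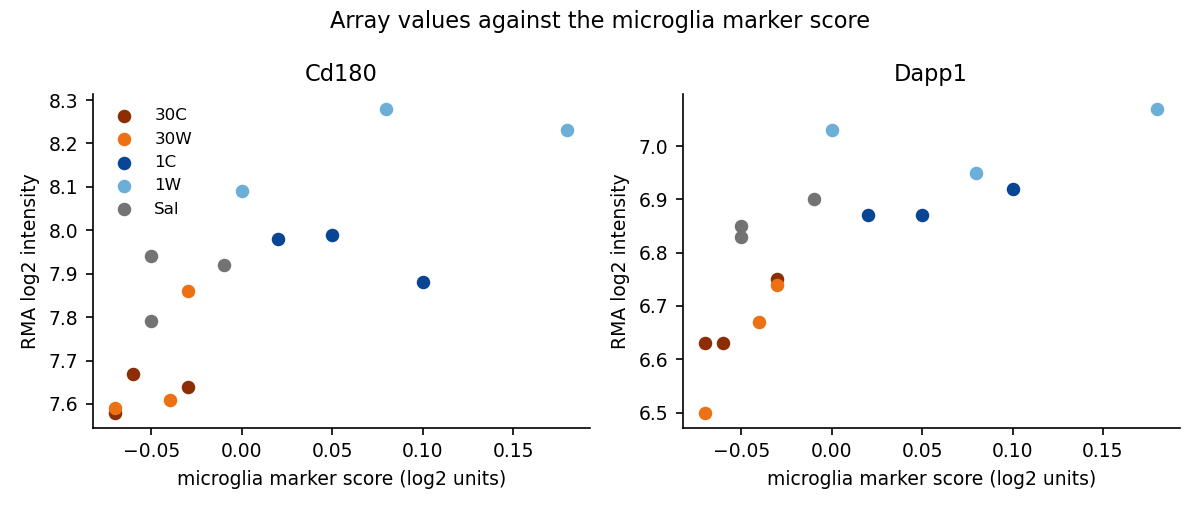
RMA log2 intensity of Cd180 (left) and Dapp1 (right) against the microglia marker score, 1 point per array, coloured by group. The day 30 arrays have scores between -0.07 and -0.03 and the day 1 arrays between 0 and 0.18; the Sal arrays, between -0.05 and -0.01, overlap the scores of the day 30 arrays but lie higher in Dapp1.

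The 30C arrays stood apart in both members, and those of 30W and 1W chose the genes. The test of a relation between the members was therefore kept to the 6 arrays of 1C and Sal, which overlapped in both. It had been planned with the 30C arrays included and was narrowed after their values were seen. There Cd180 and Dapp1 gave Pearson r = 0.24 (exact permutation p = 0.672) and Spearman rho = 0.03 (exact p = 1). Adjusted by Benjamini-Hochberg over the 3 relations computed, these were 0.672 and 1. Without the 2 arrays farthest from the median of Cd180, r was -0.75 over 4 arrays, so no relation was established. The other relations, of each member to the microglia score, are not given, because 1C (0.02 to 0.10) and Sal (-0.05 to -0.01) did not overlap in that score and the relation cannot be tested within 3 arrays.

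Lists of other cell types were read beside the members, and none of their genes passed after adjustment. Blood markers, from red cells left in the tissue, were lower at an unadjusted p under 0.05 in 3 of 4 tested in 30C against 1C, with Alas2, of haem synthesis, at -0.46 (SE 0.12) and the haemoglobin gene Hbb at -0.40 (SE 0.15). Their score was between -0.28 and 0.03 in 30C and between 0.10 and 0.24 in 1C. In 30W against 1W 2 of the 4 were lower and 1, the erythrocyte membrane gene Epb42, was higher, at 0.32 (SE 0.12). Endothelial markers were negative in 10 of 10 in both comparisons, with 2 lower at that p in each, among them Esam at -0.24 (SE 0.08) in 30C against 1C and Abcb1a at -0.14 (SE 0.06) in 30W against 1W. Oligodendrocyte markers were lower at that p in 1 of 14 in 30C against 1C and in 6 of 14 in 30W against 1W, with Fa2h, of myelin lipid synthesis, at -0.15 (SE 0.07) and -0.29 (SE 0.07). The oligodendrocyte score was 0.23 and 0.20 on 1W replicates 1 and 2. On 1W replicate 3 it was -0.02, within the 30W range of -0.05 to 0.02. The part of blood, vessel and myelin RNA in the values of Cd180 and Dapp1 was not tested.

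Genes of reactive myeloid cells were counted in the same way. All 14 activated microglia markers tested were negative in 30C against 1C, with a median of -0.11, and 2 were lower at an unadjusted p under 0.05, the galectin gene Lgals3 at -0.34 (SE 0.07) and the NADPH oxidase gene Cybb at -0.47 (SE 0.15). In 30W against 1W 8 of the 14 were negative and 0 were lower at that p, with Lgals3 at 0.11 (SE 0.07). Cybb in 1C had an SD of 0.41 over its 3 arrays, against 0.05 in 30C. Of 8 perivascular macrophage and monocyte markers tested, 7 were negative in each comparison, with 2 lower in 30C against 1C, Vcan at -0.25 (SE 0.06) and Lyz2, a lysozyme gene, at -0.44 (SE 0.20), and 1 lower in 30W against 1W, Vcan at -0.23 (SE 0.06). Lyz2 had an SD of 0.55 in 1C, against 0.06 in 30C. 1C replicate 2 had the highest score of its group in both lists, 0.24 for activated microglia (0.03 and 0.01 in replicates 1 and 3) and 0.29 for macrophages and monocytes (0.07 and -0.05 in those replicates). Mrc1, the mannose receptor of perivascular macrophages, differed by -0.09 (SE 0.07) and -0.11 (SE 0.07) in 30C against 1C and in 30W against 1W. After a further quantile normalization 1 of these macrophage markers was lower in 30C against 1C and 2 in 30W against 1W. Of the striatal neuron markers, those of medium spiny neurons, all 12 were negative in 30C against 1C, with a median of -0.11, and 6 of the 12 in 30W against 1W, with 0 lower at that p in either. Their score was -0.43 on 30C replicate 1, but 0.11 and 0.12 on replicates 2 and 3, against -0.01, 0 and 0.15 in 1C. Only 30C replicate 1 was thus below the range of 1C. Astrocyte markers were negative in 8 of 9 in 30C against 1C, with a median of -0.04, and in 6 of 9 in 30W against 1W. Neutrophil and astrocyte markers each had 1 member lower at that p in 30C against 1C, Mmp9 and Gfap, and 0 in 30W against 1W.

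Among all 11778 genes, those most like each member were sought by Pearson r over the 15 arrays, which include the arrays that chose the members. For Cd180 these were Borcs7, which encodes a subunit of a lysosome-positioning complex (r = 0.91), Cx3cr1 (0.90), Spata32 (0.90), Dapp1 (0.89) and the vesicle protein gene Syngr2 (0.88). For Dapp1 they were the zinc ribbon gene Znrd2 (0.90), Rgs19, a regulator of G protein signalling (0.90), Spindoc (0.89), Cd180 (0.89) and the proteasome subunit gene Psmd3 (0.88). Cd180 and Dapp1 each ranked 4 among the genes most like the other.

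Much of that likeness lay between groups. For deviations from the group means, r between Cd180 and Dapp1 was 0.37, at which Dapp1 ranked 1255 for Cd180 and Cd180 ranked 2125 for Dapp1. The same r was 0.60 for Borcs7, 0.47 for Cx3cr1 and 0.24 for Spata32 with Cd180, and 0.71 for Znrd2 with Dapp1. Arrays share their normalization and cell content, so these values are descriptions over 15 arrays.

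The genes alike in pattern varied less than the members. Borcs7 averaged 8.78 in 30C, 8.77 in 30W, 8.84 in 1C, 8.99 in 1W and 8.86 in Sal, with an SD of 0.08 over the 15 arrays. Spata32 averaged 6.11, 6.12, 6.23, 6.41 and 6.22 in the same groups, with an SD of 0.12. Cd180 and Dapp1 had SDs of 0.22 and 0.16 over the arrays.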

How the data were processed

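The authors deposited log2 expression values made with RMA (background correction, quantile normalization and probe set summary), per the submitters' processing notes. No version is named. Of 28826 probe sets 15209 had 1 gene symbol, 306 several and 13311 were unnamed here; 15178 were matched by Entrez ID to RefSeq (GRCr8). The probe set with the highest mean stood for each of 14497 genes, and 11778 genes above the 30th percentile on at least 3 arrays were kept. Array pairs correlated between 0.9929 and 0.9967. One limma 3.58.1 model (R 4.3.3; lmFit and eBayes) was fitted over all 15 arrays with 5 groups, with two-sided p-values adjusted by Benjamini-Hochberg over all genes and a threshold of 0.05. The fit was tested on simulated data. Exact permutations used scipy 1.17.1.

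The members and lists were chosen with earlier results of these data known. Besides a fixed set of partner and marker genes, up to 3 members of a list per direction were named, by smallest unadjusted p under 0.05 in 30C against 1C and in 30W against 1W; some of these are given by count only. For likeness the 5 genes of highest r were named. Alternatives covered the filter, probe sets, scaling, array weights, the variance model, which arrays were fitted, the replicate block and cell scores. Same-numbered arrays deviated with correlations between -0.63 and 0.50, so replicate numbers were not taken as pairs. With 3 arrays in each group, precision is limited by their number.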

Additional observations from a re-analysis of the deposited data

How the results depend on the processing

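In 30C against 1C, Cd180 lay between -0.35 and -0.26 and Dapp1 between -0.26 and -0.14 over the 27 alternatives of each, and in 30C against Sal between -0.30 and -0.22 and between -0.23 and -0.17. None of these had an adjusted p under 0.05 (lowest 0.309). Dapp1 in 1C against Sal reversed to -0.04 with the microglia score as a covariate, and its described difference in 30W against 1W moved to -0.28 and that in 1W against Sal to 0.07 with the same covariate; the cause was not tested. With replicate number as a block, which the data do not bear out as a pairing, Cd180 and Dapp1 were at -0.32 and -0.22 in 30C against 1C, -0.25 and -0.19 in 30C against Sal, 0.07 and 0.03 in 1C against Sal and -0.51 and -0.38 in 30W against 1W, and no call changed.

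Over all genes limma passed 0 in each comparison tested (646 at an unadjusted p under 0.05 in 30C against 1C, 596 in 30C against Sal, 404 in 1C against Sal and 1188 in 30W against 1W). With array weights 1 was lower (Efhc2) and 1 higher (Nfil3) in 30C against 1C, and 2 were lower (Cd180, which this contrast chose, and Spata32) and 1 higher (RT1-CE13) in 30W against 1W. With the cortical score as a covariate 1 was higher (Nfil3) in 30C against 1C. Leaving out 1 array gave between 0 and 2 lower and between 0 and 1 higher in 30C against 1C (2 lower, Il1r1 and Lgals3, without 30C replicate 3, and 1 lower, Itm2a, and 1 higher, Nfil3, without 1C replicate 2), between 0 and 1 higher in 1C against Sal (Lgals3, without 30C replicate 3) and between 0 and 1 lower in 30W against 1W (Cd180, without 30W replicate 1). Those genes other than Cd180 and Spata32 are named by their calls, after their values were seen. Of 56 list counts recomputed, 8 moved by over 1.5 times. The tests of relations were not run over all 15 arrays, since the 30C arrays stand apart and those of 30W and 1W chose the genes. The r over 15 arrays in the search for like genes is a description.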
